A study of Homo sapiens with 24 samples.

Results

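The comparison described here set engineered H9 cells that had grown in the dark among wild-type neighbours against those neighbours themselves. H9 is an established human embryonic stem cell line. The engineered cells, called optoWnt in the labels, carry a fusion of the plant photoreceptor Cry2 with the cytoplasmic part of the Wnt co-receptor LRP6 (LRP6c), joined through a 2A peptide to mCherry, together with a puromycin resistance gene. The wild-type cells carried eGFP and a neomycin resistance gene, so both populations were reporter lines and neither was unmodified. Both kinds of cell were grown mixed in E8 medium, kept in the dark, and sorted by fluorescence into an mCherry-positive fraction (mCherry dark, 3 libraries) and a GFP-positive fraction (GFP dark, 3 libraries), 6 of the 24 libraries of the series. The members are the genes measured in those 6 libraries: 19436 of 28297 genes passed the filter on low values and were tested. The same engineered and wild-type cells grown apart in the dark, labelled Cry2 dark and wt dark, gave 3 libraries each and are the nearest comparison. Matching groups were illuminated for 48 h at 0.8 µW/mm2 (mCherry light, GFP light, Cry2 light and wt light, 3 libraries each); the light co-culture groups entered the co-culture fit. Each biological replicate pooled 2 to 3 wells; no source used here states whether the engineered line is 1 clone, so what is particular to the construct and what is particular to the line cannot be told apart.

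Canonical Wnt signalling runs through Frizzled receptors and the co-receptor LRP6, whose clustered tail recruits the complex that otherwise destroys beta-catenin; stabilised beta-catenin then drives feedback genes such as AXIN2. In embryonic stem cells a strong Wnt signal pushes cells out of pluripotency towards primitive streak and mesoderm. Cry2 clusters under blue light, so in the dark the fusion is designed to be idle, and mCherry dark against GFP dark asks how the carrier cells differ from their neighbours before any stimulus.

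The deposited values are normalised read counts, that is, reads per gene divided by 1 factor per library. The 6 dark co-culture libraries held 44162262 to 56639833 reads assigned to genes, and no 2 libraries of a group agreed within sampling noise. The sorted fractions carried the reporters their labels name. The Cry2 fusion had values of 37421, 37801 and 35820 in mCherry dark, against 348.7, 397.7 and 364.2 in GFP dark. Reads of eGFP in the mCherry dark libraries came to 0.0253% to 0.0412% of the GFP dark mean, and reads of the puromycin gene in the GFP dark libraries to between 0 and 0.306% of the mCherry dark mean. The fusion feature was higher than that in GFP dark, at 0.942% to 1.07% of the mCherry dark mean, and it was about as high in the wt dark monocultures, with a mean of 381.7, in which no engineered cells were grown; the feature contains LRP6 sequence. LRP6 averaged 11861 ± 336 in mCherry dark and 3498 ± 102 in GFP dark (SD, n = 3 each), but the construct shares sequence with it, so reads of the gene and of the fusion cannot be told apart.

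Undifferentiated stem cell markers were high in both fractions. The 8 stem markers, among them POU5F1, SOX2 and NANOG, were all detected and summed to between 295553 and 314538 in mCherry dark and between 282889 and 297112 in GFP dark. The 5 primitive streak markers summed to between 52 and 57 in mCherry dark and between 58 and 66 in GFP dark, with EVX1 at 0 in all 6 libraries. HAND1 and HAND2, which mark lateral mesoderm, and SOX17, which marks endoderm, were also at 0. KDR, a VEGF receptor in the lateral mesoderm list, was high in both fractions, with values of 5122, 5367 and 5370 in mCherry dark and 4927, 5263 and 4994 in GFP dark, and made up most of that list's sum. None of the markers that could be tested, of any of the 8 cell classes listed, passed the test. Some of them, such as EVX1 and HAND1, had no reads in either dark group and passed the filter through the light libraries, so no call was possible. In the dark monocultures FOXA2, an endoderm marker, was called lower in Cry2 dark (log2 change -3.42 ± 0.50, limma adjusted p = 0.001). FOXA2 was low throughout, with a mean of 3.312 in Cry2 dark, 7 reads in all, and of 41.35 in wt dark. Its difference of co-culture minus monoculture (2.66 ± 0.78, SE) did not pass. TDGF1, a stem marker, was called higher in Cry2 dark (0.28 ± 0.06, limma adjusted p = 0.0217). In bulk libraries fewer cells of a type and less RNA per cell cannot be told apart.

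Engineered and wild-type neighbours in the dark differed in few genes. By limma on log2(value + 1), fitted over the 12 co-culture libraries with a Benjamini-Hochberg adjusted p under 0.05, 88 genes were higher in mCherry dark (0.453% of those tested) and 67 were lower (0.345%), 155 in all (0.797%). Of these, 46 were higher and 31 lower by at least 2-fold. The smallest change that passed was 0.39 on the log2 scale and the median size was 0.99. LRP6, whose reads cannot be told apart from those of the fusion, is counted among the 88 and the 46. It is therefore also in the later counts of called genes. The median log2 change over all genes tested was 0.0028. Each SE and p-value of this fit pools the spread within the dark groups with that within the light groups. In all 155 genes the libraries of the groups did not overlap, which was also so for 16.5% of all genes tested, and 126 of the 155 encode proteins. The number of calls moved with the fit and the method: a fit of the 6 dark libraries alone called 225 higher and 160 lower genes and held 149 of the 155, and DESeq2 on recovered reads called 172 higher and 119 lower and held all 155. With 1 library left out, the higher and lower counts were 57 and 49 without mCherry dark a, 60 and 41 without GFP dark a, 52 and 41 without mCherry dark b, 54 and 39 without GFP dark b, 51 and 44 without mCherry dark c, and 55 and 41 without GFP dark c.

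**Figure D1:**
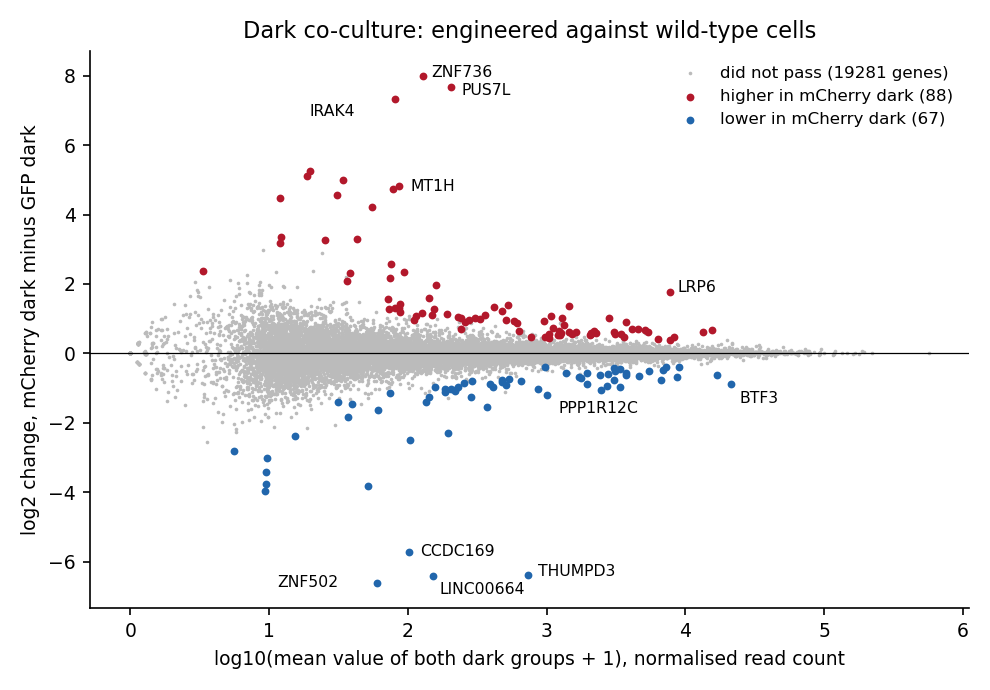
Each point is 1 of 19436 tested genes: the x axis is log10 of the mean normalised read count of both dark groups plus 1, the y axis the limma log2 change of mCherry dark minus GFP dark. Red points (88) and blue points (67) passed the test; a few genes lie past 6 on the log2 scale in either direction while the rest of the cloud stays near 0.

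The largest differences were between presence and absence of a transcript. Among genes with at most 3 reads over the 3 libraries of one fraction and a mean of at least 20 in the other, 5 were near silent in GFP dark (ZNF736, IRAK4, ZNF583, ZNF582 and ZNF582-DT) and 1 was near silent in mCherry dark (ZNF502). ZNF736, a zinc finger gene of chromosome 7 (64307459 to 64354860, plus strand; GENCODE 29 on GRCh38, as are all coordinates of genes here), had values of 212.3, 286.5 and 267.4 in mCherry dark and 0 in each GFP dark library. That is at least 310.0-fold higher in mCherry dark when GFP dark is set at 3 reads over the group (limma adjusted p = 3.12e-08). The same gene had values between 197.9 and 326.4 in Cry2 dark and 0 in every wt dark library, and it was at 0 in all 12 wild-type libraries of the series.

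IRAK4 and PUS7L, neighbours on chromosome 12 that are read in opposite directions, were both on in the engineered cells and off or nearly off in the wild-type cells. IRAK4, the kinase that relays signals from Toll-like and interleukin-1 receptors (43758944 to 43789543, plus strand), had values of 155.8, 138.6 and 185.9 in mCherry dark and 0 in each GFP dark library, at least 194.0-fold higher (limma adjusted p = 3.12e-08). PUS7L, a pseudouridine synthase-like gene (43718993 to 43758817, minus strand), had values of 328.7, 472.6 and 405.8 in mCherry dark, against 0, 0.8978 and 2.862 in GFP dark. Its log2 change was 7.68 ± 0.44 (SE; limma adjusted p = 1.87e-07). The fractions were far apart in both genes, with no overlap.

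A similar pair lay on chromosome 19. ZNF582, a zinc finger gene (56375846 to 56393545, minus strand), had values of 46.22, 20.47 and 39.55 in mCherry dark; its divergent long noncoding transcript ZNF582-DT (56393656 to 56399172, plus strand) had 20.54, 16.75 and 28.48; both were at 0 in the 3 GFP dark libraries. ZNF583, the next zinc finger gene (56397966 to 56436035, plus strand), had values of 41.94, 31.63 and 37.97 in mCherry dark and 0 in each GFP dark library. Against 3 reads over the GFP dark group, the 3 genes were at least 43.0-fold, 26.6-fold and 45.1-fold higher in mCherry dark. ZNF583 and ZNF582-DT overlap on the same strand, so their reads may be shared. ZSCAN5A, a further zinc finger gene just downstream of ZNF582 (56219670 to 56368383, minus strand), was higher without being silent in either fraction. It had values of 110.4, 129.3 and 120.2 in mCherry dark and 29.21, 33.22 and 17.89 in GFP dark (log2 change 2.17 ± 0.26, limma adjusted p = 0.000441).

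In the other direction, ZNF502, a zinc finger gene of chromosome 3 (44712643 to 44723831, plus strand), had values of 0, 0 and 0.7911 in mCherry dark, 1 read in all, and 110.6, 100.6 and 143.8 in GFP dark. Its log2 change was -6.60 ± 0.40 (limma adjusted p = 3.18e-07). THUMPD3, also on chromosome 3 (9362842 to 9386791, plus strand), encodes a THUMP-domain transfer RNA methyltransferase and was the most abundant of the genes lost in the engineered cells. It had values of 12.84, 16.75 and 20.57 in mCherry dark and 1362, 1531 and 1459 in GFP dark, 86.8-fold lower in mCherry dark (log2 change -6.38 ± 0.36, limma adjusted p = 1.87e-07). THUMPD3-AS1, an antisense gene that overlaps THUMPD3 and was counted separately, averaged 846.4 ± 148.0 in mCherry dark and 843.3 ± 57.6 in GFP dark (SD, n = 3 each) and did not pass (log2 change -0.01 ± 0.16). No source used here states whether counting took strand into account, so reads shared by the overlapping pair are uncertain.

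CCDC169, a coiled-coil gene of chromosome 13 (36222008 to 36297840, minus strand), had values of 0.856, 7.443 and 2.373 in mCherry dark and 185.0, 170.6 and 239.7 in GFP dark (log2 change -5.72 ± 0.53, limma adjusted p = 3.93e-05). Its downstream neighbour SOHLH2, a germ cell transcription factor, averaged 0.2853 in mCherry dark and 16.81 in GFP dark and also fell (log2 change -3.76 ± 0.56, limma adjusted p = 0.00292); joined transcripts of the pair are annotated, so the counts of SOHLH2 are uncertain. The long noncoding gene LINC00664 on chromosome 19 averaged 2.602 ± 1.02 in mCherry dark and 298.7 ± 41.1 in GFP dark (SD, n = 3 each), 115.0-fold lower in mCherry dark (limma adjusted p = 1.16e-06).

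The stretches just outside the starts of 4 of these loci are shown because each locus was on in one fraction and off, or nearly so, in the other. They were cut from RefSeq promoter windows (GRCh38.p14) to bases outside every GENCODE gene, and capitals mark each CG dinucleotide, the target of DNA methylation. The first 2 are the whole gap between a pair of divergent genes; the others lie upstream of ZNF502 and CCDC169.
PUS7L to IRAK4, chr12:43758818-43758943, plus strand: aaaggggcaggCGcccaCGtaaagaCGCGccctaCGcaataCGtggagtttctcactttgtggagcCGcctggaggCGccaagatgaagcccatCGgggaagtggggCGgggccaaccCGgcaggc
ZNF582 to ZNF582-DT, chr19:56393546-56393655, plus strand: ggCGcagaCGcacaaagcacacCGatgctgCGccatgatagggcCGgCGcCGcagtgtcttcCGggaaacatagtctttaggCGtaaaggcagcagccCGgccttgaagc
ZNF502, chr3:44712410-44712642, plus strand: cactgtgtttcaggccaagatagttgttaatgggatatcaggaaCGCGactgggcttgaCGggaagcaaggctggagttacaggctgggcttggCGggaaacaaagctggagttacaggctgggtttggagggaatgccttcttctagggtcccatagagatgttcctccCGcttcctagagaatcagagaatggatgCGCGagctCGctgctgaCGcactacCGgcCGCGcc
CCDC169, chr13:36297841-36298064, minus strand: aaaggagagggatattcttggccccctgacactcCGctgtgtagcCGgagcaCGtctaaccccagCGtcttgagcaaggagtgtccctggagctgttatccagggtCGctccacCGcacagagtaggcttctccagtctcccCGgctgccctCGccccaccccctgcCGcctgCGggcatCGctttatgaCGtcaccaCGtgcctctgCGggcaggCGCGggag
These stretches hold 11, 10, 12 and 16 CG. In the 250 bases upstream of the RefSeq start, the motif CG, which reads the same on both strands, occurred at a median of 20 copies (quartiles 12 and 28) over the 13017 tested genes with a RefSeq promoter. Of the 15 called genes with a log2 change of at least 4 in size, 12 had one, with a median of 18.5 and a range of 6 to 29; 10 of the 12 held at least 10 CG, as did 80.9% of all tested promoters. Methylation itself was not measured in these libraries.

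Other large rises spanned several gene families. CR1L, a complement receptor-like gene, had values of 61.63, 70.7 and 60.91 in mCherry dark and 0, 1.796 and 2.147 in GFP dark, 49.0-fold higher in mCherry dark (limma adjusted p = 6.24e-05). PCDHA6, 1 of the alternative first exons of the alpha protocadherins, which give neurons their surface identity, averaged 149.5 ± 24.8 in mCherry dark and 5.73 ± 5.15 in GFP dark. ZNF572 averaged 58.0 ± 18.8 in mCherry dark and 1.548 ± 1.14 in GFP dark. HSD17B7P2, a pseudogene of a sterol-pathway dehydrogenase whose reads may be shared with its parent, averaged 103.7 ± 18.3 in mCherry dark and 4.996 ± 2.64 in GFP dark. IZUMO2, a relative of the sperm protein that binds the egg, averaged 75.86 ± 31.1 in mCherry dark and 7.755 ± 6.52 in GFP dark; its call was lost without mCherry dark a, GFP dark a or GFP dark c, at limma adjusted p of 0.0642 to 0.072. C22orf42 averaged 127.2 ± 17.9 in mCherry dark and 21.08 ± 7.91 in GFP dark (all SD, n = 3 each), and its call was lost when any library but GFP dark a was left out. The long noncoding gene LINC03053 on the X chromosome was 5.34-fold higher in mCherry dark (log2 change 2.32 ± 0.25, limma adjusted p = 0.000134).

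Further down the list of falls, SLC9C1, a sperm sodium/proton exchanger, averaged 6.12 ± 3.66 in mCherry dark and 95.85 ± 38.0 in GFP dark. ZNF283, a zinc finger gene, averaged 30.8 ± 6.12 in mCherry dark and 175.9 ± 20.9 in GFP dark, and its neighbour ZNF404 went the other way, with 107.4 ± 26.6 in mCherry dark and 35.03 ± 5.77 in GFP dark. ECHDC3, a mitochondrial enzyme of the enoyl-CoA hydratase family, was 4.81-fold lower in mCherry dark, with values of 83.88, 48.38 and 68.82 there and 353.1, 301.7 and 312.0 in GFP dark (limma adjusted p = 0.00611). CAPS2 averaged 14.95 ± 3.5 in mCherry dark and 56.57 ± 16.4 in GFP dark (SD, n = 3 each), a call lost when any 1 of the 6 libraries was left out. LINC02335 was 2.9-fold lower and TSPEAR-AS2 was 2.38-fold lower in mCherry dark. TSPEAR-AS2 fell with its chromosome 21 neighbours TSPEAR-AS1 and LINC02575, which were 1.92-fold and 1.96-fold lower.

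**Figure D2:**
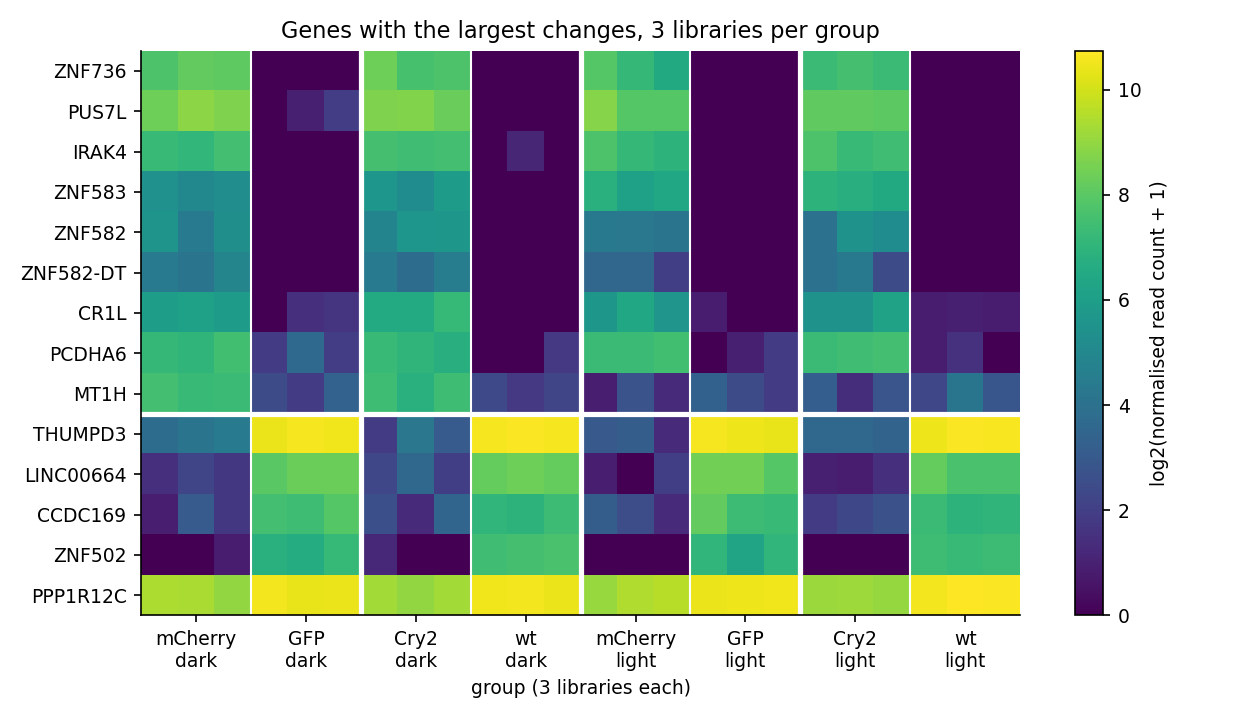
Rows are 14 genes and columns the 24 libraries, in 8 groups of 3; the colour is log2(normalised read count + 1). The 9 upper genes are high in both engineered dark groups and low or at 0 in both wild-type dark groups, the 5 lower genes the reverse; PPP1R12C differs in degree only, and MT1H is low in all light groups.

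PPP1R12C was singled out after its values were seen because its first intron holds the AAVS1 site, a common place to insert transgenes in human stem cells. It encodes a regulatory subunit of myosin phosphatase and lies on chromosome 19 (55090913 to 55117559, minus strand). Its values were 683.1, 658.7 and 504.7 in mCherry dark and 1487, 1350 and 1370 in GFP dark, 2.28-fold lower in mCherry dark (log2 change -1.20 ± 0.14, limma adjusted p = 0.000239). The fractions did not overlap, and Cry2 dark (609.7, 516.0 and 604.2) lay below wt dark (1476, 1491 and 1377) in the same way. The site of insertion of the constructs is not stated in the sources read. BTF3, a transcription and nascent-chain factor of chromosome 5, was the most abundant gene to fall: its values were 15427, 14478 and 14694 in mCherry dark and 26661, 28406 and 27905 in GFP dark, 1.86-fold lower in mCherry dark (limma adjusted p = 3.31e-05); it too was chosen after its values were seen.

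Some called genes lay side by side. Of the 155, 53 (34.2%) started within 100 kb of another called gene, in 18 clusters, against 1.76% of all tested genes with a position, and in 15 of the clusters all members moved in one direction. The largest clusters formed a stretch on chromosome 20 and a stretch on chromosome 1, whose bounds were taken from the calls themselves, so their counts are a description without a test.

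On chromosome 20, from HM13 to NOL4L (31514410 to 32585074), 12 of 22 tested genes were higher in mCherry dark and none was lower. All 17 genes of the stretch with a mean of at least 50 had a positive log2 change, between 0.45 and 0.95, with a median of 0.628, a 1.55-fold difference. BCL2L1, which encodes the survival protein BCL-xL, had values of 5655, 4802 and 4975 in mCherry dark and 3331, 3178 and 2886 in GFP dark (log2 change 0.71 ± 0.12, limma adjusted p = 0.009). The fractions did not overlap, although the call was lost without mCherry dark a, GFP dark b or GFP dark c, at limma adjusted p of 0.0502 to 0.0722. TPX2, a spindle assembly factor, had values of 16736, 16081 and 15971 in mCherry dark and 10473, 10714 and 10727 in GFP dark (limma adjusted p = 0.000172). ASXL1, a chromatin regulator, averaged 1962 ± 111 in mCherry dark and 1277 ± 53.8 in GFP dark, and POFUT1, which adds fucose to Notch receptors, averaged 3682 ± 148 in mCherry dark and 2384 ± 68.5 in GFP dark (SD, n = 3 each). ID1, a target of BMP signalling inside the stretch, averaged 2174 ± 90.7 in mCherry dark and 1563 ± 191.0 in GFP dark and did not pass (log2 change 0.48 ± 0.38). That SE also carries the spread among the light libraries, so it does not measure the dark libraries alone. The difference ended at NOL4L: COMMD7 had a log2 change of 0.12 ± 0.11, DNMT3B, the de novo DNA methyltransferase, 0.04 ± 0.08, and MAPRE1 0.03 ± 0.07. In the dark monocultures the median log2 change of the same 17 genes was 0.624 and 14 were called higher in Cry2 dark. Part of the long arm of chromosome 20 is known to be gained recurrently in cultured human pluripotent stem cells; copy number was not measured here, and its part in the result was not tested.

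On chromosome 1, from H2BC21 to MCL1 (149884459 to 150579738), 13 of 22 tested genes were lower in mCherry dark and none was higher. All 19 genes with a mean of at least 50 had a negative log2 change, between -1.03 and -0.41, with a median of -0.619, or 0.65 of the GFP dark level. MCL1, a survival protein of the BCL2 family like BCL2L1, had values of 12747, 13642 and 13415 in mCherry dark and 20286, 20728 and 20662 in GFP dark (log2 change -0.63 ± 0.11, limma adjusted p = 0.00695). MRPS21, a mitochondrial ribosomal protein, had values of 2226, 2386 and 2276 in mCherry dark and 4268, 4531 and 4574 in GFP dark, 1.94-fold lower in mCherry dark (limma adjusted p = 1.26e-05). SV2A, a synaptic vesicle protein, had values of 3580, 3643 and 3512 in mCherry dark and 5606, 5867 and 5474 in GFP dark (limma adjusted p = 0.000135). APH1A, a gamma-secretase subunit, averaged 6652 ± 370.0 in mCherry dark and 10586 ± 444.0 in GFP dark, and ANP32E, a histone chaperone, 4898 ± 348.0 in mCherry dark and 8368 ± 492.0 in GFP dark (SD, n = 3 each). The end at MCL1 was sharp, since the next gene, ENSA, had a log2 change of 0.03 ± 0.09 and the 5 genes after MCL1 a median of 0.03. At the other end the 5 genes before H2BC21, among them NBPF19 and LINC00869, had a median log2 change of -0.83 although none passed. The median in the dark monocultures was -0.647, with 15 of the 19 genes called lower in Cry2 dark. When all tested genes were cut into 763 runs of 25 along the chromosomes, a run of this region (NBPF14 to PRPF3) was the only one whose median log2 change was past 0.3 in size, at -0.658 with 10 of 25 genes lower; the highest median of any run was 0.211.

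**Figure D3:**
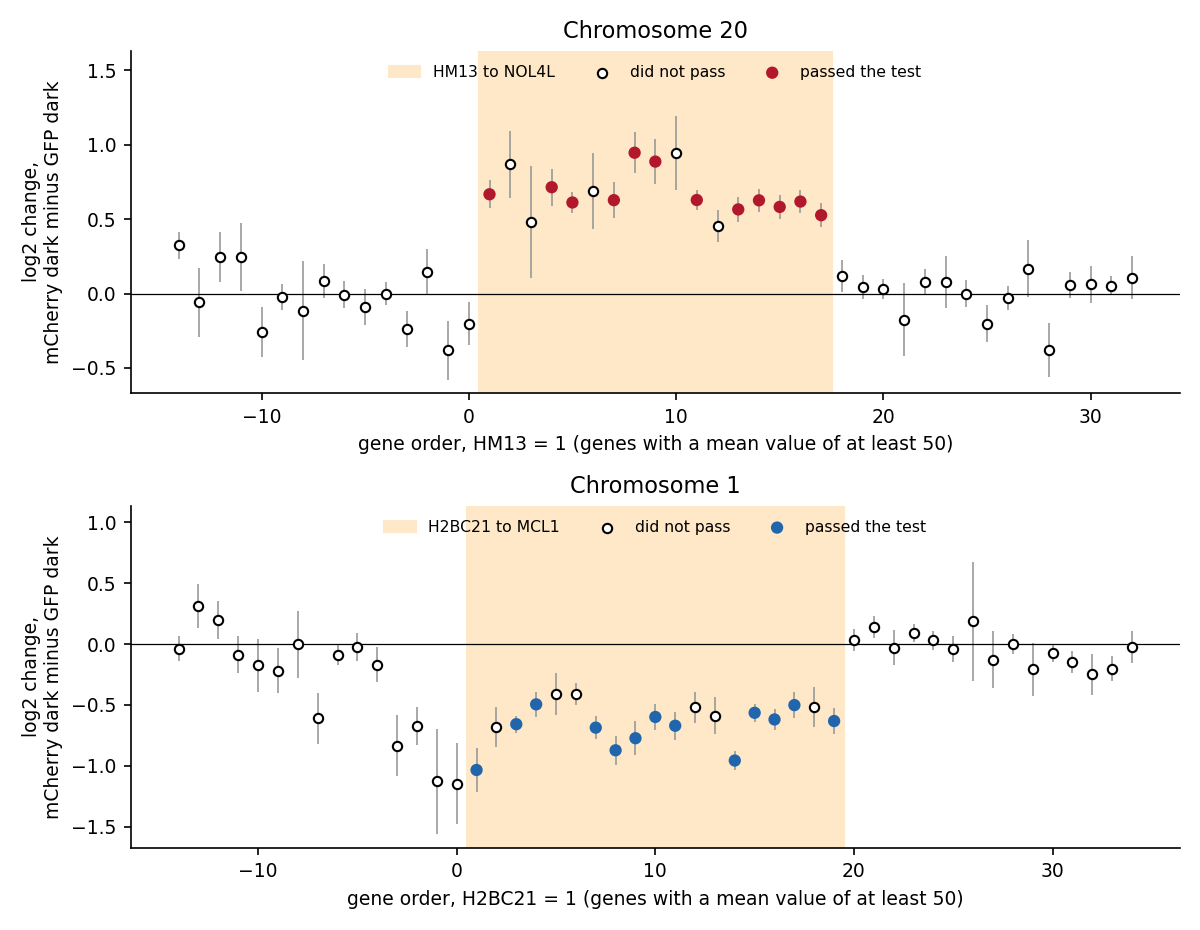
Points are genes with a mean normalised read count of at least 50, in genomic order and counted from HM13 (above) or H2BC21 (below); the y axis is the log2 change of mCherry dark minus GFP dark with its SE. Within the shaded stretches all points lie above 0 on chromosome 20 (0.45 to 0.95) and below 0 on chromosome 1 (-1.03 to -0.41), and on the far side of both the changes return to near 0.

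Calls were unevenly spread over chromosomes in other places as well. On the X chromosome 13 genes were higher and 4 lower of 718 tested (2.37% called, against 0.797% of all genes tested). Chromosome 21 (1 higher and 5 lower of 207, 2.9%) and chromosome 13 (1 higher and 7 lower of 362, 2.21%) had shares of similar size. Of the 17 X-linked calls, 16 were also called in the dark monocultures. The 17 genes did not form one stretch. EFNB1, the ligand ephrin-B1, which sets boundaries between cell groups, had values of 1305, 1239 and 1206 in mCherry dark and 717.7, 665.3 and 593.9 in GFP dark (log2 change 0.93 ± 0.15, limma adjusted p = 0.00602). PJA1, a ubiquitin ligase nearby, had values of 4837, 4876 and 4970 in mCherry dark and 2585, 2638 and 2635 in GFP dark, and OTUD5, a deubiquitinase, averaged 5672 ± 136 in mCherry dark and 3483 ± 187 in GFP dark (SD, n = 3 each). Members of the BEX family moved apart: BEX3 averaged 18964 ± 263 in mCherry dark and 11922 ± 515 in GFP dark, whereas BEX4 averaged 2263 ± 97.3 in mCherry dark and 3825 ± 212 in GFP dark. LDOC1, a retrotransposon-derived gene, was 2.09-fold lower in mCherry dark (limma adjusted p = 1.26e-05). These X-linked genes were chosen after their values were seen.

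Zinc finger genes of the Krüppel type are mostly repressors, many of them clustered on chromosome 19. Those whose symbol is ZNF and a number with no letter after it gave 11 higher and 5 lower genes of 439 tested. These are 2.51% and 1.14%, against 0.453% and 0.345% of all genes tested. ZNF585A, ZNF585B and other symbols with a letter, such as ZSCAN5A, are not in these counts. Within one chromosome 19 cluster ZNF350 and ZNF615 were 2.25-fold and 2.23-fold higher in mCherry dark, while ZNF613 beside them was 2.01-fold lower. ZNF585A and ZNF585B, close copies of each other whose reads may be split between them, were 2.06-fold and 2.18-fold lower. On chromosome 3 ZNF619 averaged 271.7 ± 23.4 in mCherry dark and 503.8 ± 42.6 in GFP dark (SD, n = 3 each). Of 43 clustered protocadherin genes 1 was higher (PCDHA6, 2.33%) and 3 were lower (6.98%), against the same 0.453% and 0.345% of all genes. PCDHGA10 was 1.95-fold, PCDHB16 2.62-fold and PCDHB9 2.79-fold lower in mCherry dark. The call of PCDHB9 was lost when any 1 of the 6 libraries was left out. The protocadherin transcripts share exons or close sequence, so their counts are uncertain.

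Metallothioneins, which bind zinc and copper, were tested as 8 genes with a median log2 change of 0.74, against 0.003 over all genes. Of the 8 genes, 2 were higher and none lower, where 0.453% of all genes tested were higher and 0.345% lower. MT1G had values of 2107, 2122 and 2069 in mCherry dark and 764.7, 817.9 and 864.3 in GFP dark (log2 change 1.36 ± 0.15, limma adjusted p = 0.000172). MT1H, its neighbour, had values of 181.5, 156.3 and 159.8 in mCherry dark and 4.425, 2.694 and 9.302 in GFP dark, 30.3-fold higher (limma adjusted p = 0.000231). In the co-culture fit MT1H passed the filter on low values through the mCherry dark libraries alone. It fell under the filter when any mCherry dark library was left out, so its call could not be checked that way. In monoculture MT1G averaged 2064 ± 149.0 in Cry2 dark and 872.5 ± 28.5 in wt dark, and MT1H 148.5 ± 33.1 in Cry2 dark and 3.448 ± 0.854 in wt dark (SD, n = 3 each). MT2A (968.5 ± 82.3 in mCherry dark, 677.5 ± 66.5 in GFP dark; limma adjusted p = 0.129) and MT1E (614.1 ± 55.4 in mCherry dark, 396.9 ± 20.2 in GFP dark; limma adjusted p = 0.252) did not pass (SD, n = 3 each). Members of this family are near copies of each other, so reads may be assigned to the wrong one.

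The lists of Wnt pathway genes held no call in the dark, a share near the 0.797% over all genes tested for lists of their size. None of 15 Wnt feedback and target genes was called, with a median log2 change of 0.09, none of 13 tested Wnt ligand and secretion genes, and none of 26 receptors and core components, LRP6 not among them. The lowest limma adjusted p was 0.0593 among ligand and secretion genes and 0.466 among receptors and core components. For the co-culture the lists were counted in the fit of 12 libraries, not in that of the 6 dark libraries, which called more genes. AXIN2, the standard readout of beta-catenin, averaged 594.8 ± 31.4 in mCherry dark and 558.0 ± 34.7 in GFP dark (SD, n = 3 each; log2 change 0.09 ± 0.18). ZNRF3, a ubiquitin ligase that removes Frizzled receptors, had values of 1881, 1916 and 1897 in mCherry dark and 1634, 1686 and 1660 in GFP dark (limma adjusted p = 0.891). LEF1 averaged 21.35 ± 3.79 in mCherry dark and 18.32 ± 2.35 in GFP dark. The lowest limma adjusted p of the target list was 0.225, for APCDD1, a Wnt inhibitor, at 236.9 ± 5.06 in mCherry dark and 317.1 ± 34.8 in GFP dark; this gene was called lower in Cry2 dark monocultures (log2 change -0.58, limma adjusted p = 0.00941). The primitive streak list (0 of 14) and the list of genes of epithelial-mesenchymal transition (0 of 13) gave no call. Genes with hardly any reads in the dark also counted as tested where light raised them, here and in the other lists. Such genes had little or no chance of a call in the dark.

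The pluripotency list gave none of 14, again near the share over all genes, with a median log2 change of 0.01. POU5F1 averaged 94169 ± 5820 in mCherry dark and 91340 ± 3090 in GFP dark, NANOG 3843 ± 280.0 in mCherry dark and 4006 ± 218.0 in GFP dark, and SOX2 8562 ± 283 in mCherry dark and 8570 ± 344 in GFP dark (SD, n = 3 each). Likewise 0 of 18 epithelial junction genes, 0 of 18 proliferation genes and 0 of 79 ribosomal protein genes passed. A few lists held 1 or 2 calls, where 0.453% of all genes tested were higher and 0.345% lower. The imprinted genes H19, a noncoding growth regulator, and PEG10, a retrotransposon-derived gene, were lower (2 of 23); H19 averaged 46.28 ± 11.6 in mCherry dark and 101.4 ± 12.8 in GFP dark and PEG10 7720 ± 228.0 in mCherry dark and 10173 ± 1050 in GFP dark. ZIC2, a neural ectoderm and primed pluripotency transcription factor, was lower (6261 ± 420.0 in mCherry dark, 8268 ± 483 in GFP dark), as was PDK1, which holds back pyruvate oxidation (1101 ± 95.8 in mCherry dark, 1633 ± 79.1 in GFP dark). ACSS2, an acetyl-CoA synthetase, was higher (4185 ± 334 in mCherry dark, 3045 ± 243 in GFP dark), and so was the collagen gene COL5A1 (1195 ± 70.1 in mCherry dark, 885.0 ± 132.0 in GFP dark). Each of these 6 calls was lost when certain single libraries were left out, at limma adjusted p between 0.0531 and 0.295 and with no change of direction: ZIC2 without any 1 of the 6, PEG10 without any but GFP dark c, COL5A1 without any but GFP dark a, H19 without mCherry dark b or c or GFP dark a or b, PDK1 without mCherry dark a or b or GFP dark b or c, and ACSS2 without mCherry dark a or c or GFP dark a or b. Calls were also lost for COL5A1 at a pseudocount of 0.5, with no filter and with TMM or quantile scaling, for ZIC2 with no filter, TMM scaling or edgeR, and for PEG10 with no filter or in the fit of all 24 libraries, at adjusted p between 0.0503 and 0.154. EFNB1 was the 1 call of 19 Eph and ephrin genes (5.26%), BCL2L1 of 15 cell competition genes (6.67%) and IRAK4 of 28 innate immune genes (3.57%). All 3 were higher in mCherry dark, as were 0.453% of all genes tested. The remaining lists held no call: naive and germ cell genes (11 tested), lateral and cardiac mesoderm (11), endoderm (5), amnion and trophoblast (9), blood and endothelium (4), BMP (19), Nodal and TGF-beta (14), FGF and ERK (21), Notch (14), YAP targets (12), immediate early and heat shock genes (19), oxidative stress (13), DNA methylation (11) and potassium channels (70).

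The same cells grown apart in the dark share no library with the co-cultures. There, by the same test over the 12 monoculture libraries, 441 genes were higher and 259 lower in Cry2 dark than in wt dark, 700 of 19444 (3.6%). Of the 155 genes called in co-culture, 137 were called the same way in monoculture (80 higher and 57 lower), 88.4% of the 155 and 19.6% of the 700, and none was called the opposite way. Of the 155, 154 could be tested in both, and all 154 had the same sign. IRAK4 had a log2 change of 7.32 in co-culture and 7.12 in monoculture, THUMPD3 -6.38 in co-culture and -7.55 in monoculture, and BTF3 -0.90 in co-culture and -1.02 in monoculture. In the 18 libraries outside the dark co-culture, light ones included, the 9 engineered and the 9 wild-type libraries did not overlap, in the same direction, for 90 of the 155 genes (58.1%), against 2.72% of all genes tested. Under light, where 54.3% of genes were called between mCherry light and GFP light, 111 of the 155 were called the same way and 25 the opposite way; MT1G, GRPR, XKR7 and BCL2L1 were among the 25.

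**Figure D4:**
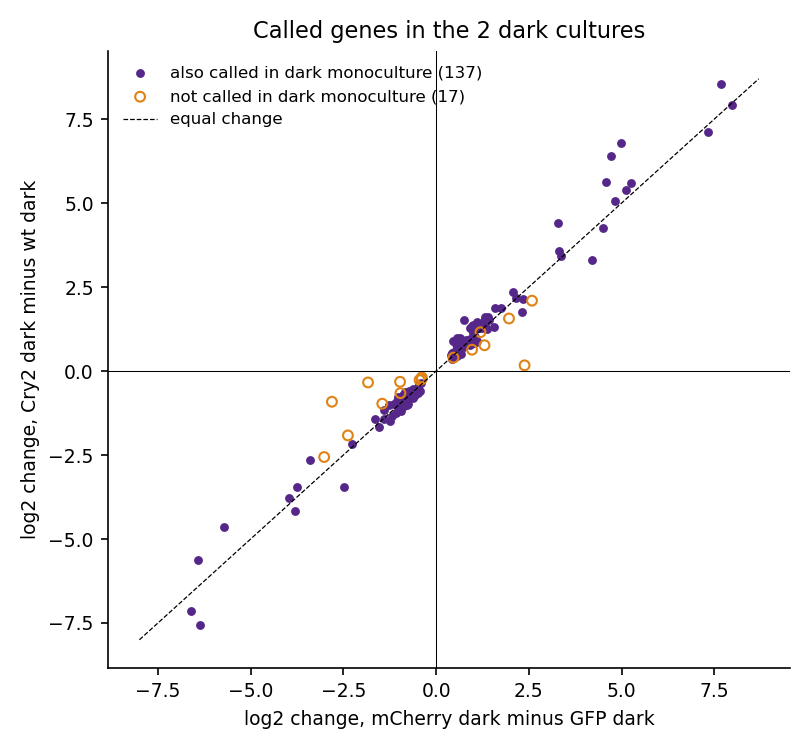
Each point is 1 of the 154 called genes tested in both cultures: the x axis is the log2 change of mCherry dark minus GFP dark, the y axis that of Cry2 dark minus wt dark, and the dashed line marks equal change. Filled points (137) also passed in monoculture, open points (17) did not; all points lie to the lower left or the upper right of the origin.

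The monoculture count moved with the libraries used. The monoculture library wt dark 1 is listed with 33.73% GC by the authors, while the other 5 dark monoculture libraries have between 50.47% and 51%, and Cry2 dark 3 has the lowest RNA integrity number of the 6, 7.6. Without these 2 libraries 267 genes were called in monoculture and 102 of the 155 were shared, an alternative chosen after seeing the data.

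Whether the difference between engineered and wild-type cells itself depended on growing together was tested over all 24 libraries. Of 20322 genes 1 passed (0.00492%), and 807 had an unadjusted p under 0.05. This gene was TAGLN, which encodes the actin-binding protein transgelin, a target of serum response factor and TGF-beta signalling. TAGLN had values of 4666, 4244 and 4481 in mCherry dark and 5179, 4864 and 5269 in GFP dark, and of 5990, 6002 and 6483 in Cry2 dark and 3831, 3811 and 4374 in wt dark. In co-culture the engineered libraries lay just below their neighbours (log2 change -0.19 ± 0.09, limma adjusted p = 0.873), whereas in monoculture they lay well above (0.62 ± 0.09, limma adjusted p = 0.000768); the difference was -0.82 ± 0.13 (limma adjusted p = 0.0332). The call was lost, and no gene passed, when any 1 of the 6 dark co-culture libraries was left out, and also without wt dark 1 and Cry2 dark 3. Culture, sorting and read depth differ together between the 2 designs, and collection may too, so they cannot be told apart. The dark monoculture libraries held 28237578 to 34291124 assigned reads, against 44162262 to 56639833 in the dark co-culture.

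A fit of the 12 dark libraries alone called 11 genes, all with a lower log2 change in co-culture than in monoculture. Besides TAGLN they were the stress-response genes DDIT4 and CHAC1, the cell cycle inhibitor CDKN1A, the thioredoxin inhibitor TXNIP, the protease inhibitor SERPINB9, the actin-related genes LCP1, MYL9 and ACTA1, and ANXA3 and INKA2. In co-culture the log2 change was below 0 for TAGLN, MYL9 and INKA2 and above 0 for the rest. SERPINB9 was called higher there (0.75 ± 0.12, limma adjusted p = 0.00424) and rose more in monoculture (1.52 ± 0.12). CDKN1A, the best known p53 target, had values of 3244, 2863 and 2965 in mCherry dark and 2426, 2158 and 2250 in GFP dark, and of 2752, 2381 and 2307 in Cry2 dark and 1073, 1164 and 982.4 in wt dark. The wt dark libraries were the low ones of the 4 groups. The difference was -0.80 ± 0.11 over the 12 dark libraries (limma adjusted p = 0.000232) and -0.80 ± 0.20 over all 24 (limma adjusted p = 0.978). DDIT4, an inhibitor of mTORC1, was also lowest in wt dark: it had values of 5708, 5722 and 5986 in mCherry dark and 4584, 4585 and 4707 in GFP dark, against 6595, 5897 and 6029 in Cry2 dark and 3301, 3008 and 2896 in wt dark (difference -0.68 ± 0.08 over the 12 dark libraries, limma adjusted p = 2.67e-05; 0.978 over all 24).

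The lists these genes belong to showed the same contrast in counts. None of 21 p53 targets passed in co-culture, where 0.453% of all genes were higher. Their median log2 change there was 0.13, with 19 of 21 positive, against 9860 of all 19436 genes tested. In Cry2 dark monocultures 13 of the 21 were higher (median 0.50), where 2.27% of all genes were. BTG2, an antiproliferative p53 target, had values of 1073, 1037 and 1054 in mCherry dark and 919.5, 783.8 and 850.0 in GFP dark (log2 change 0.31 ± 0.13, limma adjusted p = 0.744), and of 1142, 1190 and 1021 in Cry2 dark and 612.3, 632.3 and 468.2 in wt dark (0.98, limma adjusted p = 7.42e-05). MDM2, the ubiquitin ligase of p53, averaged 2779 ± 230.0 in mCherry dark and 2600 ± 71.3 in GFP dark, and 2918 ± 170.0 in Cry2 dark and 2054 ± 91.2 in wt dark (SD, n = 3 each). Of 18 genes of the unfolded protein and amino acid response none passed in co-culture (median 0.12) and 8 were higher in Cry2 dark monocultures (median 0.29). The shares over all genes were the same 0.453% and 2.27%. In the test of the difference over 24 libraries no member of either list passed, with smallest limma adjusted p of 0.978 and 0.942, so the difference in counts is not shown to be a difference between the cultures by that test.

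**Figure D5:**
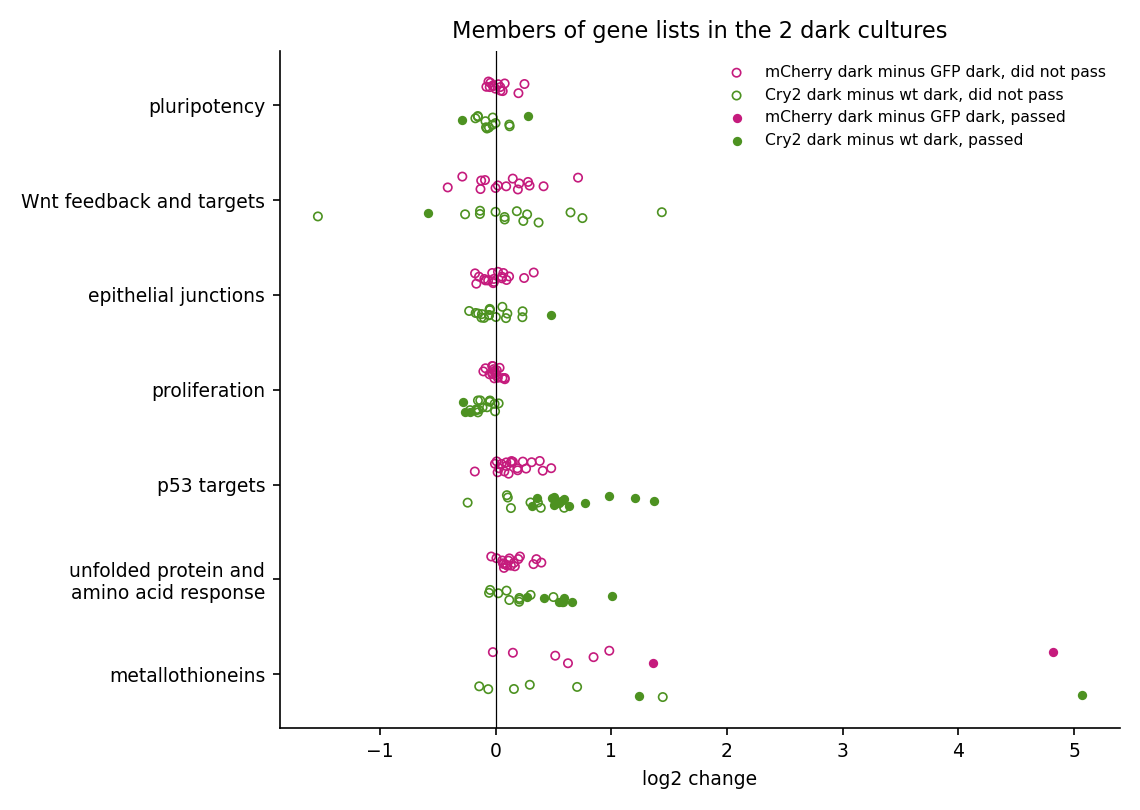
Each point is 1 member of a gene list; the x axis is its log2 change, with mCherry dark minus GFP dark in the upper row of each list and Cry2 dark minus wt dark in the lower row, and filled points passed the test. No pluripotency, Wnt, junction, proliferation, p53 or unfolded protein response gene is filled in the upper rows, whereas 13 p53 targets and 8 unfolded protein and amino acid response genes are filled in the lower rows.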

How the data were processed

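RNA of 24 libraries, 3 in each of 8 groups, was sequenced from stranded TruSeq mRNA preparations, per the labels' protocols. FastQC, cutadapt, Bowtie2, STAR, HTSeq, DESeq and the build GRCh38 are named in the submitters' processing notes, without versions; the header of the deposited library table names hg19 instead, and neither states how counting treated strand. The deposited gene table holds normalised read counts, a signal that the authors obtained by dividing the reads of each gene by 1 factor per library. Dividing out the steps gave whole reads for 100.0% of values within 0.01. A deposited library table by the authors gives read counts, percent GC, percent aligned and the RNA integrity number, a score of RNA quality; it was used for the monocultures alone, since its rows of sorted samples name no replicate. Gene coordinates were looked up by Ensembl ID in GENCODE 29 (28124 of 28297 genes placed).

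Co-culture columns name a group and no replicate, so these libraries are called a, b and c and were not paired. Monoculture columns were matched to samples by description and grouped by title, since the genotype tags of those samples go against the titles. Genes at a value of 10 or more in at least 3 libraries of a fit, light ones included, were tested. The test was limma 3.58.1 (R 4.3.3, with trend) on log2(value + 1), so fold changes of low genes are understated. Folds given as such are ratios of group means. Benjamini-Hochberg adjusted p under 0.05 was called. The co-culture comparison was fitted on the 12 co-culture libraries, light groups included, the monoculture comparison on the 12 monoculture libraries, and the difference between cultures on all 24. edgeR 4.0.16 and DESeq2 1.42.0 were run on recovered reads as alternatives, and the co-culture fit was tested on simulated data. Values of 0 were set at 3 reads over the group to bound a fold, which covers counting error only. Nothing states that replicates came from separate cultures beyond the pooling of 2 to 3 wells, so p-values measure the spread between these libraries, which may be technical. The light libraries are among them, so their spread enters every SE and p-value of the main fits.

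Named genes were the 12 largest rises and 12 largest falls among called genes whose higher group averaged 50 or more, genes near silent in one group (at most 3 reads against a mean of at least 20), up to 4 members per direction of each list by adjusted p, up to 6 called genes of a named run of 25 genes, and genes of the difference between cultures. Genes of the chromosome 20 stretch, the X chromosome and gene clusters beyond these were named after their values were seen. The members and the 36 gene lists were chosen with earlier results of these data known.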

Additional observations from a re-analysis of the deposited data

Results flagged for a closer look

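TAGLN was the 1 gene whose engineered against wild-type difference itself differed between the dark cultures in the fit of 24 libraries, by -0.82 ± 0.13 on the log2 scale (co-culture minus monoculture, SE; limma adjusted p = 0.0332). All 3 mCherry dark libraries lay below the 3 GFP dark libraries, while all 3 Cry2 dark libraries lay above the 3 wt dark libraries. The 2 cultures also differ in sorting, whose part in the result was not tested.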

How the results depend on the processing

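With 1 dark co-culture library left out, the genes higher in mCherry dark numbered 51 to 60 (88 with all), the genes lower 39 to 49 (67), those shared with the dark monocultures 88 to 103 (137), and the difference between cultures 0 to 0 (1). A fit of the dark groups alone gave 225 higher, 160 lower, 324 shared, 11 for the difference and 2470 in monoculture (700). DESeq2 on recovered reads gave 172 higher, 119 lower, 219 shared and 1234 in monoculture, and edgeR 109 higher and 75 lower. Without wt dark 1 and Cry2 dark 3, chosen after seeing the data, the difference gave 0 genes and the monoculture 267. The other pseudocounts, filters, scalings and the fit of all 24 libraries kept these counts within 1.5 times; the causes of the moves were not tested. For 40 of the genes named here and called in co-culture, 634 values under alternatives were computed: 61 no longer passed and none reversed. The call of 29 of the 40 held wherever it could be computed. Of these 29, 4 (MT1H, ZNF572, ZNF582 and ZNF582-DT) fell under the filter in some alternatives, and 25 were tested in all. Other called genes described here, among them MCL1, MRPS21, SV2A, BTF3, PPP1R12C, TPX2 and PJA1, were not followed singly through the alternatives. With 1 dark co-culture library left out, 52 to 62 of all 155 calls were lost. No paired analysis was possible in the co-culture because its columns carry no replicate number. In the monocultures a replicate block gave 605 genes and 134 shared; deviations of same-numbered libraries correlated at -0.032, -0.061 and 0.029, so the numbers do not pair them. The smallest log2 change that passed was 0.39, and the SE varied between genes around a median of 0.161, so small differences may have been missed with 3 libraries a group.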
